A study of Homo sapiens with 6 samples.

Results

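The proteasome is the protease complex that degrades most ubiquitin-tagged proteins of the cytosol and nucleus. The genes described here are 45 constitutive members of it, named by their known place in the complex and found by symbol among the 50868 genes of the deposited tables: 7 subunits of the alpha ring, 7 of the beta ring, 10 of the base, 8 of the lid, 8 assembly factors, and 5 activators and inhibitors. Their transcript levels came from RNA-seq of 3 SF3B4 siRNA libraries and 3 control siRNA libraries. Both groups carry the label A549, a lung adenocarcinoma line, and the titles differ in the transfected siRNA: one targets SF3B4, a subunit of the U2 snRNP part SF3b that works at the branch point in splicing, and the other is a scramble sequence. The comparison asks how transcript levels changed when SF3B4 was depleted. No source used here gives the siRNA sequences, dose or harvest time of either group.

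Several label facts bear on every value below. The titles, which set the groups, put all 3 knockdown libraries under SF3B4, whereas the genotype field reads SF3B5 for knockdown replicate 2 and SF3B6 for knockdown replicate 3. SF3B4 had 22.0, 17.7 and 22.3 FPKM (fragments scaled by transcript length and by library size) in SF3B4 siRNA libraries, against 88.6, 92.0 and 93.8 FPKM in control siRNA libraries, so all 3 knockdown libraries were low for it. SF3B5 averaged 199 ± 8.97 FPKM in SF3B4 siRNA libraries and 426 ± 30.5 FPKM in control siRNA libraries (SD, n = 3 each), low in all 3 knockdown libraries. SF3B6 averaged 41.5 ± 2.20 FPKM in SF3B4 siRNA libraries and 45.9 ± 3.12 FPKM in control siRNA libraries (SD, n = 3 each). The deposited file names carry another lung line, H1650. Of 8 genes typical of A549, 2 reached a mean of 1 FPKM over all libraries (NQO1 and AKR1B10). AKR1B10 averaged 2.16 FPKM in SF3B4 siRNA libraries but 0.885 FPKM in control siRNA libraries. AKR1C1, AKR1C2, ALDH1A1, ALDH3A1 and GPX2 were near 0 in both groups. All 5 epithelial markers were expressed, with a summed level of 1240 to 1330 FPKM in SF3B4 siRNA libraries and 1100 to 1280 FPKM in control siRNA libraries. Haematopoietic and endothelial markers summed to under 1 FPKM in every library. The 3 fibroblast markers summed to 2.83 to 3.14 FPKM in SF3B4 siRNA libraries and to 2.06 to 2.20 FPKM in control siRNA libraries, with DCN near 0, and their part in the results was not tested. The libraries held an implied 17509149 to 18529671 fragments, and their log2 levels correlated at 0.98 to 0.984 within groups and at 0.955 to 0.965 between groups.

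In the 20S core, 2 outer rings of alpha subunits gate the entry to 2 inner rings of beta subunits, of which PSMB5, PSMB6 and PSMB7 carry the chymotrypsin-like, caspase-like and trypsin-like active sites. The 19S particle caps the core. Its base unfolds substrates with a ring of ATPases, and its lid holds PSMD14, the enzyme that removes ubiquitin chains as the substrate enters. Dedicated chaperones build the rings, and many subunit genes are known to be induced together by the transcription factor NFE2L1 when proteasome activity is short.

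Most core and cap subunits were higher in SF3B4 siRNA libraries, while 4 members were lower: PSMB5, PSMD14 and the alpha-ring chaperones PSMG2 and PSMG3. All 45 members passed the filter on low values (1 FPKM or more in 3 or more of the 6 libraries). By limma on log2(FPKM + 0.1), with p-values adjusted over all 9685 tested genes and a threshold of 0.05, 25 of the 45 members rose (55.6%) and 4 fell (8.89%). Of all tested genes, 34.1% passed the threshold, 16% as higher and 18.1% as lower. The median log2 fold change, SF3B4 siRNA over control siRNA, was 0.36 over the members and -0.0035 over all tested genes. Over the 32 subunits of the 20S core and the 19S particle it was 0.50, with 23 that rose and 2 that fell. All 3 SF3B4 siRNA libraries lay above all 3 control siRNA libraries for 29 of the 45 members (64.4%) and below them for 6, where 23.8% and 25.7% of all tested genes did so. The largest rise was 1.80-fold, and 9 members rose by at least 1.5-fold. In RNA from a bulk culture, a lower share of expressing cells and less RNA per cell cannot be told apart. The titles call the libraries of each group biological replicates but do not say whether these came from separate cultures. The p-values thus reflect no more than the spread among these libraries.

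**Figure D1:**
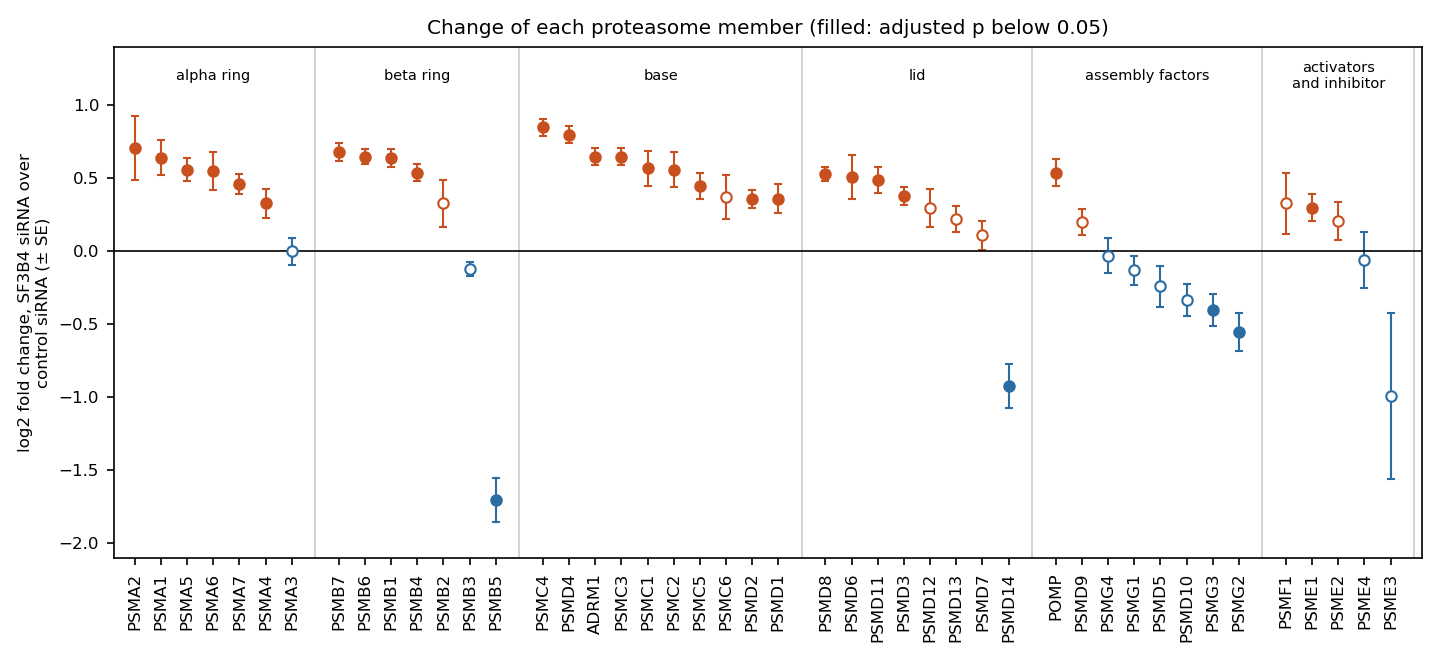
The plot shows, for each of the 45 members grouped by place in the complex (horizontal axis), the log2 fold change of SF3B4 siRNA over control siRNA with its limma standard error (vertical axis). Filled points passed the adjusted threshold of 0.05: the base lies between 0.36 and 0.85, while PSMB5 at -1.70 and PSMD14 at -0.92 stand below their subcomplexes.

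In the alpha ring, 6 of the 7 subunits rose and PSMA3 did not pass the test; the median log2 fold change was 0.55. PSMA2 had 55.8, 54.2 and 60.7 FPKM in SF3B4 siRNA libraries, against 46.4, 24.4 and 37.1 FPKM in control siRNA libraries. The knockdown libraries were close to each other and all higher, whereas the controls were widely spread. Its log2 fold change of 0.71 with SE 0.22 (limma adjusted p = 0.046) was the highest of the ring and the least precise, and without control siRNA replicate 2 it was 0.45. PSMA1 had 7.92, 8.13 and 8.52 FPKM in SF3B4 siRNA libraries and 5.81, 5.61 and 4.395 FPKM in control siRNA libraries, a log2 fold change of 0.64 with SE 0.12 (limma adjusted p = 0.0055). PSMA5 had 28.5, 30.9 and 29.8 FPKM in SF3B4 siRNA libraries and 22.3, 19.3 and 18.8 FPKM in control siRNA libraries, a log2 fold change of 0.56 with SE 0.08 (limma adjusted p = 0.0022). PSMA6 had 28.6, 22.9 and 29.6 FPKM in SF3B4 siRNA libraries and 20.6, 18.7 and 15.8 FPKM in control siRNA libraries, a log2 fold change of 0.55 with SE 0.13 (limma adjusted p = 0.015). These 3 subunits had no overlap between groups. PSMA7, the most abundant alpha subunit per length, averaged 287 ± 10.9 FPKM in SF3B4 siRNA libraries and 209 ± 14.8 FPKM in control siRNA libraries (SD, n = 3 each; log2 fold change 0.46, limma adjusted p = 0.0020). PSMA4 rose least of the 6, by 0.33 on the log2 scale (limma adjusted p = 0.039). PSMA3, whose tail takes part in closing the gate of the core, had 5.76, 6.49 and 5.69 FPKM in SF3B4 siRNA libraries and 5.997, 5.67 and 6.28 FPKM in control siRNA libraries, so the groups overlapped (SE 0.09, limma adjusted p = 0.99).

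Subunits that share a ring in equal numbers differed widely in transcript level per length. Over the 7 alpha subunits, group means ran over a range of 53.6-fold in SF3B4 siRNA libraries and 49.0-fold in control siRNA libraries, with PSMA4 lowest and PSMA7 highest in both. Beta subunits spanned 13.9 to 264 FPKM in SF3B4 siRNA libraries and 35.7 to 288 FPKM in control siRNA libraries. Such ranges between genes depend on the length the authors assigned to each gene, which is not given. The annotated exonic length was 6996 bases for PSMA4 and 1750 bases for PSMA7. At these lengths, PSMA4 held an estimated 607 fragments per library and PSMA7 an estimated 7841. The part of gene length in the ranges was not tested. Some members share sequence with other genes. Over its whole coding length of 705 bases, PSMA2 was identical to the gene ENSG00000256646, which averaged 2.32 FPKM in SF3B4 siRNA libraries and 10.3 FPKM in control siRNA libraries. PSMA6 shared 95.1% of 759 bases with the pseudogene PSMA6P1, which averaged 27.3 FPKM over the 6 libraries. PSMA6P1 averaged 32.3 FPKM in SF3B4 siRNA libraries and 22.2 FPKM in control siRNA libraries (log2 fold change 0.54, limma adjusted p = 0.015). Gene and copy thus moved in the same direction by a like amount. ENSG00000256646 also overlaps PSMA2 on the same strand, over 14.6% of the exonic length of PSMA2. ENSG00000256646 failed the filter on low values (1 FPKM or more in 3 or more of the 6 libraries) and was not tested. Its group means thus rest on few libraries, and no change between groups can be read from them. ENSG00000258790 overlaps PSMA6 on the same strand, over 14.1% of the exonic length of PSMA6. It averaged 4.05 FPKM in SF3B4 siRNA libraries and 1.48 FPKM in control siRNA libraries (limma adjusted p = 0.22). How the authors assigned shared reads is not given, so the levels of PSMA2 and PSMA6 are uncertain. The part of these other genes in their changes was not tested. The call of PSMA2 was lost without SF3B4 siRNA replicate 1 (limma adjusted p = 0.11), 2 (0.11) or 3 (0.13) and without control siRNA replicate 3 (0.092). The call of PSMA4 was lost without SF3B4 siRNA replicate 1 (limma adjusted p = 0.11) or 3 (0.12) and without control siRNA replicate 2 (0.10) or 3 (0.12).

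**Figure D2:**
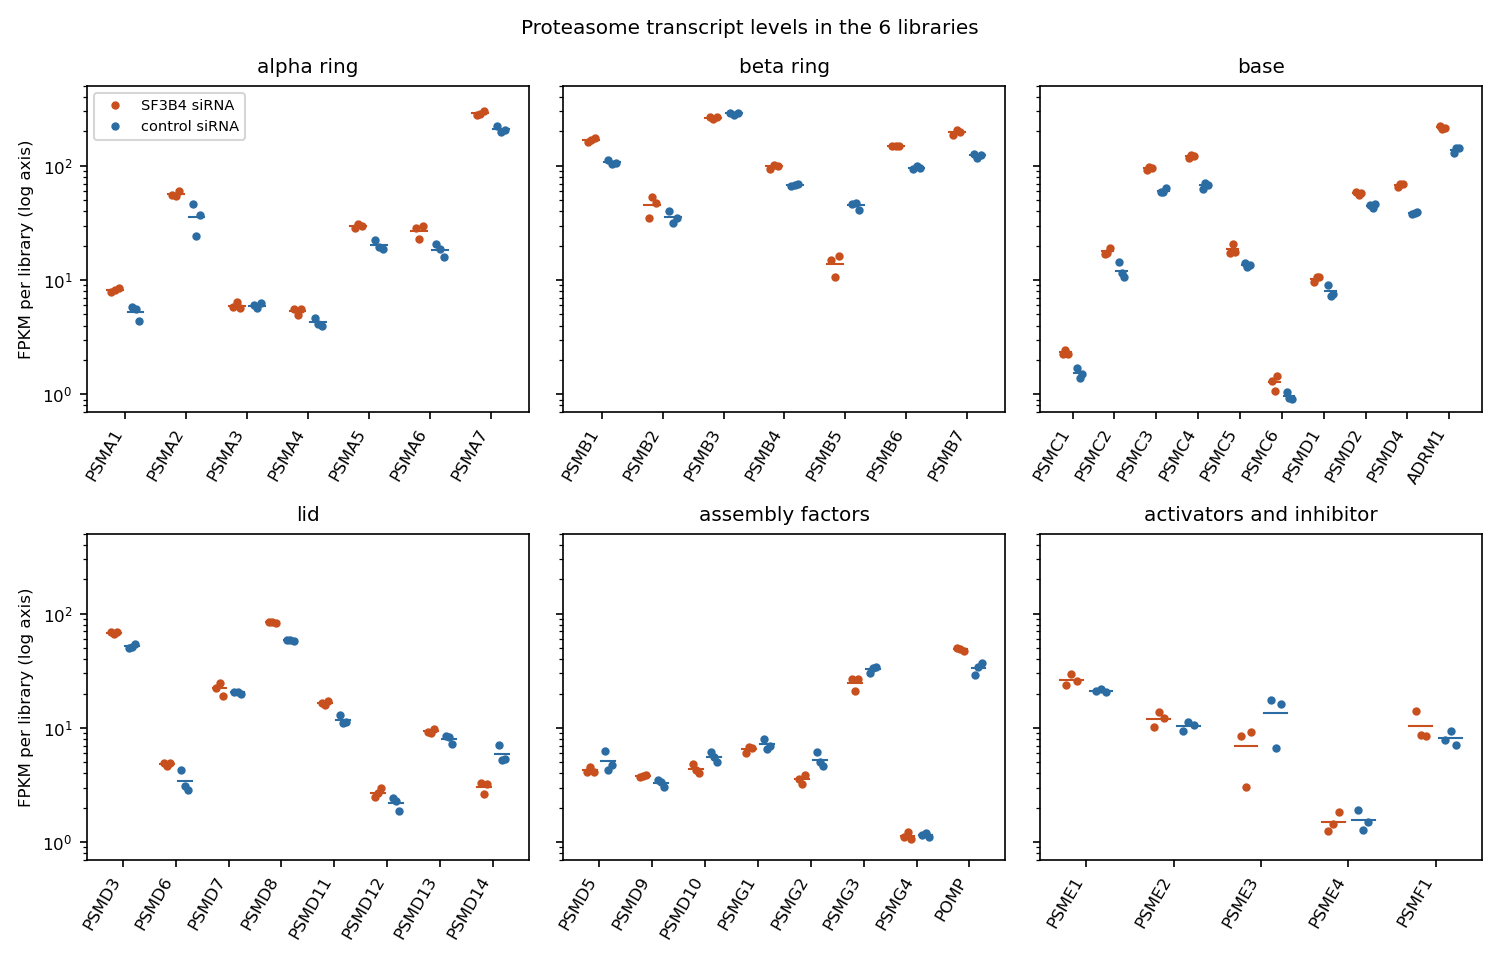
The panels show the FPKM of each member in each library (vertical log axis), SF3B4 siRNA to the left of control siRNA, with a line at each group mean. Base subunits of the knockdown libraries lie above the controls throughout, and PSMB5 at 10.7 to 16.3 FPKM lies below its controls at 41.5 to 47.1 FPKM.

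In the beta ring, 4 of the 7 subunits rose by similar amounts, PSMB5 fell, and PSMB2 and PSMB3 did not pass the test. PSMB5 had 14.8, 10.7 and 16.3 FPKM in SF3B4 siRNA libraries, against 46.6, 47.1 and 41.5 FPKM in control siRNA libraries. Every knockdown library was far below every control. Its log2 fold change was -1.70 (SE 0.15, limma adjusted p = 0.00038), a level of 0.307 times the control, and it was number 32 from the lowest of the 9685 tested genes. The gene lies on the minus strand of chromosome 14, bases 23016543 to 23035230 (GRCh38, GENCODE 29). The other active-site subunits went the opposite way. PSMB6 had 150 FPKM in each of the 3 SF3B4 siRNA libraries and 93.0, 99.0 and 95.9 FPKM in control siRNA libraries, a log2 fold change of 0.65 with SE 0.05 (limma adjusted p = 0.00022). PSMB7 had 186, 206 and 199 FPKM in SF3B4 siRNA libraries and 126, 118 and 126 FPKM in control siRNA libraries, a log2 fold change of 0.68 with SE 0.06 (limma adjusted p = 0.00036).

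The non-catalytic PSMB1 had 163, 168 and 175 FPKM in SF3B4 siRNA libraries and 113, 105 and 106 FPKM in control siRNA libraries, a log2 fold change of 0.64 with SE 0.06 (limma adjusted p = 0.00036). PSMB4, likewise without an active site, had 94.7, 102 and 101 FPKM in SF3B4 siRNA libraries and 67.0, 68.1 and 69.1 FPKM in control siRNA libraries (log2 fold change 0.54, SE 0.06, limma adjusted p = 0.00056). Neither subunit had any overlap between groups. PSMB3 had 268, 255 and 268 FPKM in SF3B4 siRNA libraries, against 289, 281 and 293 FPKM in control siRNA libraries. All 3 knockdown libraries were slightly below the controls, but the difference of -0.12 on the log2 scale (SE 0.05) missed the threshold (limma adjusted p = 0.10). PSMB2 averaged 45.5 ± 9.35 FPKM in SF3B4 siRNA libraries and 35.7 ± 4.15 FPKM in control siRNA libraries (SD, n = 3 each; limma adjusted p = 0.16), with knockdown replicate 1 among the controls. Without that replicate, PSMB2 passed the test as higher, by 0.50 on the log2 scale (limma adjusted p = 0.018).

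The 3 active-site subunits have counterparts that replace them in the immunoproteasome: PSMB8 for PSMB5, PSMB9 for PSMB6 and PSMB10 for PSMB7. PSMB8 had 62.8, 69.2 and 65.5 FPKM in SF3B4 siRNA libraries and 44.2, 52.3 and 47.0 FPKM in control siRNA libraries, a log2 fold change of 0.46 with SE 0.08 (limma adjusted p = 0.0040). The ratio of PSMB5 to PSMB8 in FPKM was 0.236, 0.155 and 0.249 in SF3B4 siRNA libraries, against 1.05, 0.899 and 0.883 in control siRNA libraries. PSMB8 was thus in excess per length in all 3 knockdown libraries, while PSMB5 and PSMB8 were near equal in the controls. PSMB9 rose by 0.37 on the log2 scale (limma adjusted p = 0.019), and PSMB10 averaged 37.8 ± 3.48 FPKM in SF3B4 siRNA libraries and 33.0 ± 4.17 FPKM in control siRNA libraries (limma adjusted p = 0.20; SD, n = 3 each). The ratio of PSMB6 to PSMB9 averaged 4.96 ± 0.463 in SF3B4 siRNA libraries and 4.08 ± 0.232 in control siRNA libraries (SD, n = 3 each). That of PSMB7 to PSMB10 averaged 5.24 ± 0.491 in SF3B4 siRNA libraries and 3.78 ± 0.582 in control siRNA libraries (SD, n = 3 each). Both thus lay above 1 in both groups.

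**Figure D3:**
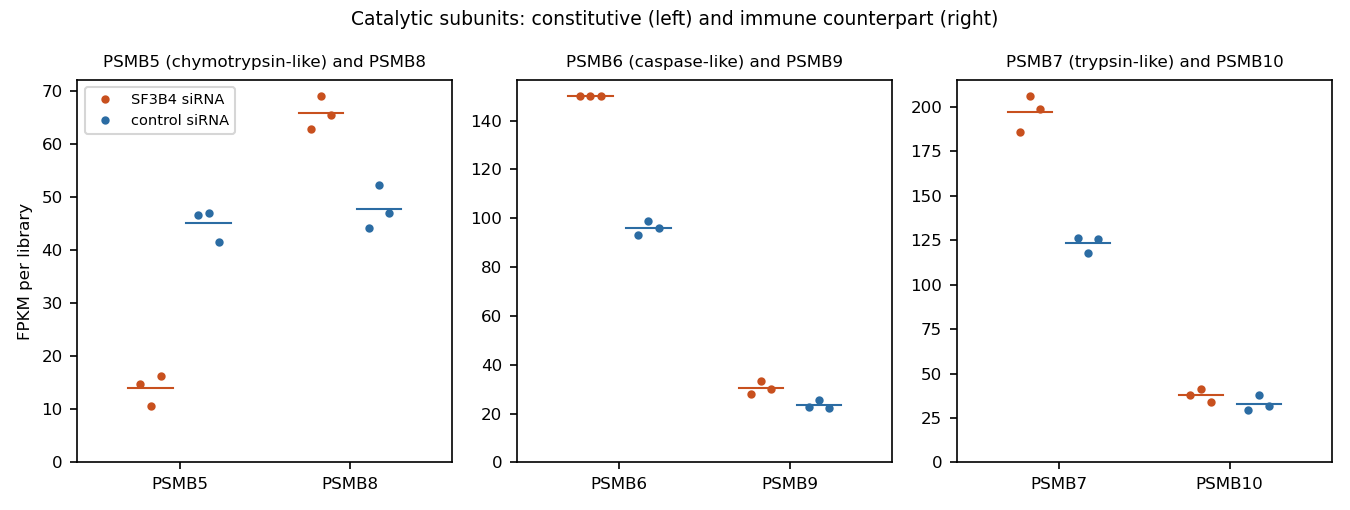
Each panel shows FPKM per library (linear axis from 0) for an active-site subunit and its immune counterpart, SF3B4 siRNA to the left of control siRNA, with a line at each group mean. PSMB5 averaged 13.9 FPKM in SF3B4 siRNA libraries and 45.04 FPKM in control siRNA libraries, whereas PSMB6, PSMB7 and PSMB8 were higher in the knockdown.

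The annotated 3′ UTRs of the members were searched for the overlapping 7-mers GCCTTCA and CCTTCAA, read on the transcript strand because an earlier look at these data had picked these words. They occurred in 6 of the 45 members (13.3%), against 1767 of 8385 tested genes with an annotated 3′ UTR (21.1%). Among the members they were in 2 of the 4 that fell, in 1 of the 25 that rose and in 3 of the 16 that did not pass. Over all tested genes with an annotated 3′ UTR, they were in 36.5% of those that fell, in 12.3% of those that rose and in 18.9% of those that did not pass. Since the words were picked in these data, neither split is independent evidence. PSMB5 held both words in 1 run of 8 letters, starting at base 96 of a 238-base 3′ UTR. PSMD14 held the first word at base 26 of a 317-base 3′ UTR. The stretches are shown because they come from the members that fell most, with the other 4 for comparison, and capitals mark the 7-mers (GENCODE 29, transcript strand, 5′ to 3′):
PSMB5: agtggaaggGCCTTCAAttgtatca
PSMD14: attaatgatGCCTTCAgtgtatatt
PSMA4: ctgactaccCCTTCAAcatttgcct
PSMD7: tattgtttaCCTTCAAagatacaat
PSMD10: gttttctcaCCTTCAAagtcttata
PSME3: ataccttagGCCTTCAgtcaattcc
Of these genes PSMA4 rose, and PSMD7, PSMD10 and PSME3 did not pass the test. PSMG2 and PSMG3, which fell, did not hold these letters in the annotated 3′ UTRs searched. A match is a description of letters and no test was made of it.

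In the base, 9 of the 10 subunits rose, PSMC6 did not pass, and all 10 had every SF3B4 siRNA library above every control siRNA library. The median log2 fold change was 0.57. PSMC4, an ATPase of the unfolding ring (chromosome 19, bases 39971005 to 39981441), had 117, 124 and 122 FPKM in SF3B4 siRNA libraries, against 63.0, 71.3 and 67.6 FPKM in control siRNA libraries. With a log2 fold change of 0.85 and SE 0.06 (limma adjusted p = 0.00018) it had the largest rise of all members, number 230 from the highest of the tested genes. PSMD4, a receptor for ubiquitin chains (chromosome 1, bases 151254703 to 151267479), had 65.1, 69.1 and 69.1 FPKM in SF3B4 siRNA libraries, against 37.7, 39.0 and 39.4 FPKM in control siRNA libraries. Its groups were tight and far apart, with a log2 fold change of 0.80 and SE 0.06 (limma adjusted p = 0.00016). ADRM1, another ubiquitin receptor, had 224, 211 and 216 FPKM in SF3B4 siRNA libraries, against 129, 144 and 143 FPKM in control siRNA libraries (log2 fold change 0.65, SE 0.06, limma adjusted p = 0.00043). It was the most abundant base transcript per length in both groups.

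The ATPase PSMC3 had 91.8, 98.1 and 95.6 FPKM in SF3B4 siRNA libraries, against 59.4, 58.7 and 64.3 FPKM in control siRNA libraries (log2 fold change 0.65, SE 0.06, limma adjusted p = 0.00043). The ATPase PSMC2 had 16.9, 17.4 and 19.1 FPKM in SF3B4 siRNA libraries, against 14.3, 11.5 and 10.6 FPKM in control siRNA libraries (log2 fold change 0.56, SE 0.12, limma adjusted p = 0.0091). Both were without overlap, and PSMC5 rose by 0.45 on the log2 scale (limma adjusted p = 0.0067). The large scaffold subunits PSMD2 and PSMD1 rose least, each by 0.36 on the log2 scale. PSMD2 had 58.8, 55.7 and 58.1 FPKM in SF3B4 siRNA libraries, against 45.01, 42.9 and 46.6 FPKM in control siRNA libraries (SE 0.06, limma adjusted p = 0.0040). PSMD1 averaged 10.3 ± 0.586 FPKM in SF3B4 siRNA libraries and 8.01 ± 0.981 FPKM in control siRNA libraries (SD, n = 3 each; limma adjusted p = 0.033). Its call was lost without SF3B4 siRNA replicate 2 (limma adjusted p = 0.090) or 3 (0.096) and without control siRNA replicate 2 (0.094) or 3 (0.098).

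The low levels of the ATPases PSMC1 and PSMC6 have near-identical copies beside them. PSMC1 had 2.27, 2.45 and 2.25 FPKM in SF3B4 siRNA libraries, against 1.71, 1.38 and 1.52 FPKM in control siRNA libraries (log2 fold change 0.57, SE 0.12, limma adjusted p = 0.0083). Its processed pseudogene PSMC1P1 (chromosome 3, bases 68635705 to 68637024), 99.9% identical over 1320 bases, had 54.6, 59.4 and 54.8 FPKM in SF3B4 siRNA libraries, against 40.8, 34.2 and 34.7 FPKM in control siRNA libraries. The copy was without overlap between groups and rose by 0.62 on the log2 scale (SE 0.08, limma adjusted p = 0.0015), so gene and copy moved in the same direction by a like amount. PSMC1 also overlaps NRDE2 on the opposite strand over 75.8% of its exonic length, and NRDE2 averaged 0.409 FPKM in SF3B4 siRNA libraries and 0.467 FPKM in control siRNA libraries. PSMC6 averaged 1.28 ± 0.186 FPKM in SF3B4 siRNA libraries and 0.958 ± 0.0716 FPKM in control siRNA libraries (SD, n = 3 each; log2 fold change 0.37, limma adjusted p = 0.091). A processed pseudogene 98.3% identical to PSMC6 over 1170 bases averaged 4.87 ± 0.351 FPKM in SF3B4 siRNA libraries and 3.996 ± 0.782 FPKM in control siRNA libraries (SD, n = 3 each; limma adjusted p = 0.17). How reads were divided between gene and copy is not stated in any source used here, so the levels of PSMC1 and PSMC6 are uncertain. Other base genes overlap a neighbour on the opposite strand: PSMC5 shares 19.5% of its exonic length with FTSJ3 and ADRM1 shares 11.4% with LAMA5. LAMA5 averaged 43.8 FPKM in SF3B4 siRNA libraries and 51.5 FPKM in control siRNA libraries. Since the strand setting is not stated, reads of the shared stretch cannot be told apart.

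Promoter letters were compared because the members moved together. The RefSeq table (GRCh38.p14, 250 bases before to 50 after a start) matched 39 of the 45 members. Those without a match were PSMA7, PSMB1, PSMB6, PSMB7 and PSMD4, which rose, and PSMG3, which fell. The motif TGACNNNGC, searched on both strands as a core of the sites bound by NFE2L1 and related factors, was in 15 of those 39 members (38.5%), in 19.9% of 7083 tested genes and in 16.1% of all 27305 genes of the table. By promoter windows of the same length, the shares were 33.3% of 48 member windows and 13.3% of all 35116 windows. Of the 15 members with the motif 7 rose and 1 fell, and of the 24 without it 13 rose. The motif was also in PSMB3, PSMD5, PSMD9, PSMD12, PSME2, PSME4 and PSMG1, which did not pass the test and whose windows are not shown. PSMD1 and PSME1, which rose, held it too, and their windows are likewise not shown. The motif CCAAT, on both strands, was in 48.7% of those members, 42.8% of the tested genes and 39.7% of all genes. Windows around the motif are shown for 5 members that rose (capitals mark TGACNNNGC; each is read 5′ to 3′ on the strand given after its coordinates, GRCh38.p14):
ADRM1, chr20:62302751-62302775, plus strand: ctcccctaTGACACAGCaacaatag
PSMA4, chr15:78540652-78540676, plus strand: gggcacgaTGACTCTGCaccgcctc
PSMC4, chr19:39971184-39971208, minus strand: ctccatagTGACCAAGCcggcctct
PSMC5, chr17:63827656-63827680, minus strand: ggcggcgcTGACACAGCagatccgg
PSMD3, chr17:39980762-39980786, plus strand: ccctttgtTGACTCGGCcatcggcc
For comparison, PSMG2, which fell, also held the motif:
PSMG2, chr18:12658691-12658715, plus strand: gtttcccgTGACCCCGCggccgctc
Relative to a transcript start, the centre of the motif lay at base -133 in ADRM1, -122 in PSMA4, -53 in PSMC5, -33 in PSMD3, -35 in PSMG2 and 32 in PSMC4. Where a gene had several starts, the position is from only 1 of them. Promoter windows at other starts of PSMA4, PSMC5 and PSMG2 did not hold the motif. The motifs shown are matches of letters and not shown to be bound sites.

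The lid was mixed: 4 of its 8 subunits rose (PSMD3, PSMD6, PSMD8 and PSMD11), PSMD14 fell, and PSMD7, PSMD12 and PSMD13 did not pass. PSMD14, the deubiquitinase of the lid (chromosome 2, bases 161308038 to 161411717), had 3.31, 2.65 and 3.23 FPKM in SF3B4 siRNA libraries, against 7.11, 5.28 and 5.31 FPKM in control siRNA libraries. Every knockdown library was below every control, and control replicate 1 was the highest. Its log2 fold change was -0.92 (SE 0.15, limma adjusted p = 0.0031), or 0.530 times the control level. PSMD7, its catalytically inactive partner, had 22.4, 24.9 and 19.1 FPKM in SF3B4 siRNA libraries, against 20.7, 20.6 and 19.9 FPKM in control siRNA libraries. These groups overlapped, with a log2 fold change of 0.11 and SE 0.10 (limma adjusted p = 0.45).

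Among the scaffold subunits of the lid, PSMD8 had 84.7, 85.2 and 83.4 FPKM in SF3B4 siRNA libraries, against 58.5, 58.7 and 57.9 FPKM in control siRNA libraries. It was the tightest of the members that rose in the controls, with a log2 fold change of 0.53 and SE 0.05 (limma adjusted p = 0.00045). PSMD6 had 4.91, 4.65 and 4.91 FPKM in SF3B4 siRNA libraries, against 4.29, 3.11 and 2.86 FPKM in control siRNA libraries (log2 fold change 0.51, SE 0.15, limma adjusted p = 0.035). The control libraries of PSMD6 were spread, with replicate 1 near the knockdown level. Its call was lost without SF3B4 siRNA replicate 1 (limma adjusted p = 0.080), 2 (0.069) or 3 (0.084) and without control siRNA replicate 2 (0.094) or 3 (0.10). PSMD11 rose by 0.49 (limma adjusted p = 0.0047) and PSMD3 by 0.38 (limma adjusted p = 0.0028) on the log2 scale. PSMD12 and PSMD13 are further scaffold subunits of the lid. PSMD12 averaged 2.72 ± 0.245 FPKM in SF3B4 siRNA libraries and 2.20 ± 0.276 FPKM in control siRNA libraries (SD, n = 3 each; limma adjusted p = 0.11). PSMD13 averaged 9.36 ± 0.363 FPKM in SF3B4 siRNA libraries and 8.03 ± 0.691 FPKM in control siRNA libraries (SD, n = 3 each; limma adjusted p = 0.095). Both lay above all controls in each knockdown library without passing the test.

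Among the assembly factors 1 of 8 rose, 2 fell and 5 did not pass, with a median log2 fold change of -0.18. The difference from the counts of the subunits was not tested. POMP, the chaperone that is built into the beta ring and degraded on its completion, had 49.9, 49.2 and 47.1 FPKM in SF3B4 siRNA libraries, against 29.2, 34.2 and 37.3 FPKM in control siRNA libraries. It was higher in every knockdown library, with a log2 fold change of 0.54 and SE 0.09 (limma adjusted p = 0.0042). The ratio of POMP to PSMB5 in FPKM averaged 3.61 ± 0.878 in SF3B4 siRNA libraries and 0.751 ± 0.138 in control siRNA libraries (SD, n = 3 each).

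PSMG1 and PSMG2 form a dimer that scaffolds the alpha ring. PSMG2 (chromosome 18, bases 12658043 to 12725740) had 3.57, 3.24 and 3.88 FPKM in SF3B4 siRNA libraries, against 6.14, 4.99 and 4.68 FPKM in control siRNA libraries. All knockdown libraries were lower, with a log2 fold change of -0.55 and SE 0.13 (limma adjusted p = 0.014). PSMG1 averaged 6.51 ± 0.397 FPKM in SF3B4 siRNA libraries and 7.17 ± 0.772 FPKM in control siRNA libraries (SD, n = 3 each; limma adjusted p = 0.35). PSMG3 and PSMG4 form a second dimer of alpha-ring chaperones. PSMG3 averaged 24.9 ± 3.32 FPKM in SF3B4 siRNA libraries and 32.7 ± 2.15 FPKM in control siRNA libraries (SD, n = 3 each; log2 fold change -0.40, limma adjusted p = 0.025). Its call was lost without control siRNA replicate 2 (limma adjusted p = 0.066) or 3 (0.079), and its exons share 3.06% of their length with PSMG3-AS1 on the opposite strand, which averaged 1.92 FPKM in SF3B4 siRNA libraries and 0.839 FPKM in control siRNA libraries. PSMG4 had 1.10, 1.23 and 1.07 FPKM in SF3B4 siRNA libraries, against 1.15, 1.21 and 1.11 FPKM in control siRNA libraries, with overlapping groups (log2 fold change -0.03, SE 0.12, limma adjusted p = 0.90). PSMD5, PSMD9 and PSMD10 are chaperones that bind the ATPases while the base is assembled. They did not pass, with log2 fold changes of -0.24, 0.20 and -0.33 (limma adjusted p = 0.25, 0.14 and 0.055), although PSMD10 passed as lower without SF3B4 siRNA replicate 1 (limma adjusted p = 0.048).

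Of the activators and inhibitor, PSME1 rose and the other 4 did not pass. PSME1 and PSME2 form the ring that opens the core without ATP and is induced by interferon. PSME1 averaged 26.2 ± 3.12 FPKM in SF3B4 siRNA libraries and 21.2 ± 0.635 FPKM in control siRNA libraries (SD, n = 3 each; log2 fold change 0.30, limma adjusted p = 0.042). Its call was lost without SF3B4 siRNA replicate 2 (limma adjusted p = 0.11) or 3 (0.082) and without control siRNA replicate 1 (0.090), 2 (0.069) or 3 (0.11). PSME2 averaged 12.1 ± 1.88 FPKM in SF3B4 siRNA libraries and 10.4 ± 0.909 FPKM in control siRNA libraries (SD, n = 3 each; limma adjusted p = 0.25). PSME4, a large nuclear activator, was near 1 FPKM in several libraries of both groups. It had 1.24, 1.44 and 1.82 FPKM in SF3B4 siRNA libraries, against 1.92, 1.29 and 1.51 FPKM in control siRNA libraries. Its groups overlapped (log2 fold change -0.06, SE 0.19, limma adjusted p = 0.83). PSME3, the nuclear activator related to PSME1, is given because its replicates stood apart and was chosen after its values were seen. It had 8.51, 3.02 and 9.19 FPKM in SF3B4 siRNA libraries, against 17.7, 6.64 and 16.2 FPKM in control siRNA libraries. Replicate 2 was the lowest library of both groups, and its log2 fold change of -0.99 (SE 0.57) did not pass (limma adjusted p = 0.24). Without SF3B4 siRNA replicate 2 it was -0.48 (limma adjusted p = 0.50), and without control siRNA replicate 2 it was -1.43 (limma adjusted p = 0.10). PSMF1, which encodes a proteasome inhibitor, averaged 10.5 ± 3.23 FPKM in SF3B4 siRNA libraries and 8.11 ± 1.17 FPKM in control siRNA libraries (SD, n = 3 each; limma adjusted p = 0.27), with knockdown replicate 1 the highest at 14.2 FPKM. Without that replicate its log2 fold change was 0.09.

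The median change was larger among abundant members than among scarce ones, a difference that was not tested. Across the 45 members, which share the same 6 libraries, the control mean in FPKM and the log2 fold change had a Spearman correlation of 0.43. Within the 32 subunits of the 20S core and the 19S particle it was 0.34, and across all 9685 tested genes -0.05. The part of place in the complex in the correlation over all members was not tested. Of the 21 members with a control mean of at least 20 FPKM, 16 rose and 2 fell, with a median log2 fold change of 0.54. Of all 1684 tested genes at that level, 22.5% rose and 22.8% fell. Of the 24 members below 20 FPKM, 9 rose and 2 fell, with a median of 0.26, whereas 14.6% and 17.1% of the 8001 tested genes below that level rose and fell. From the implied depth and exonic lengths, a member held an estimated 151 to 7841 fragments per library, for a counting error of 8.14% to 1.13% as a coefficient of variation.

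**Figure D4:**
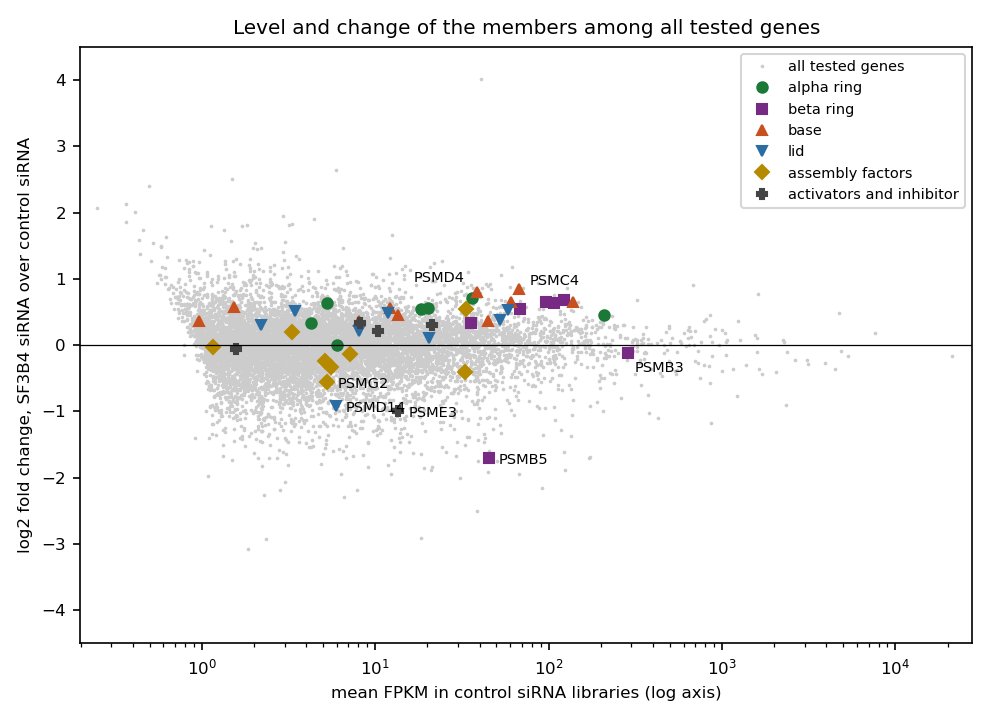
Each point is a gene at its control siRNA mean in FPKM (horizontal log axis) and its log2 fold change of SF3B4 siRNA over control siRNA (vertical axis); grey points are the 9685 tested genes and coloured symbols the 45 members. Members with a control mean of at least 20 FPKM have a median of 0.54 and those below it 0.26, and PSMB5 at -1.70 is the lowest member.

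The members were not equally firm under other settings. The calls of 10 members held in this test and in all 17 alternatives: PSMB1, PSMB4, PSMB6, PSMB7, PSMC3, PSMC4, PSMD4, ADRM1 and PSMD8 as higher, and PSMB5 as lower. Without each of the 6 libraries in turn, 23 of the 29 calls held, 20 higher and 3 lower. The most settings ended the calls of PSMA2 and PSME1, each lost in 9 of 17. Since the genotype field of knockdown replicates 2 and 3 names other genes, SF3B4 siRNA replicate 1 alone was also set against the 3 controls, with the spread of the controls standing for it. That test called 10 members higher and 1, PSMB5, lower.

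Other genes of the pathway came from lists written with earlier results of these data known. Of the 37 listed, 31 were tested, 10 rose (32.3%) and 1 fell (3.23%). NFE2L1, the transcription factor that induces subunit genes, had 20.7, 21.4 and 24.1 FPKM in SF3B4 siRNA libraries, against 12.3, 11.5 and 12.3 FPKM in control siRNA libraries. It was higher in all 3 knockdown libraries, with a log2 fold change of 0.87 and SE 0.08 (limma adjusted p = 0.00038), and this call held in all 17 alternatives. VCP, UFD1 and NPLOC4, which extract proteins such as NFE2L1 from the endoplasmic reticulum membrane, rose by 0.39 each on the log2 scale (limma adjusted p = 0.0012, 0.019 and 0.0040). Of the 11 listed genes of the NFE2L1 pathway, 9 were tested, 4 rose and 5 did not pass. Those 5 were SYVN1, SEL1L, MAFF, MAFG and MAFK, with log2 fold changes of 0.02, 0.03, -0.32, 0.40 and -0.48 (limma adjusted p = 0.90, 0.87, 0.77, 0.58 and 0.28). DDI2 and NGLY1 were below the filter on low values and not tested. The base chaperone PAAF1 and the stress-induced proteasome partner ZFAND2A each rose by 0.46 on the log2 scale (limma adjusted p = 0.016 and 0.011), and the small lid subunit SEM1 by 0.35 (limma adjusted p = 0.045). Several of these calls were lost without 1 library. PSMB9 lost its call without SF3B4 siRNA replicate 2 or control siRNA replicate 1 or 3 (limma adjusted p = 0.057, 0.053 and 0.066), PAAF1 without replicate 2 of either group (0.063 and 0.05), and UFD1 without SF3B4 siRNA replicate 2 or 3 or control siRNA replicate 2 (0.057, 0.065 and 0.051). SEM1 lost its call without SF3B4 siRNA replicate 2 or 3 or control siRNA replicate 1 or 3 (limma adjusted p = 0.10, 0.14, 0.10 and 0.13). The tissue-specific subunits PSMB11 and PSMA8 were listed at 0 in all 6 libraries.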

How the data were processed

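RNA from 6 libraries labelled A549 was sequenced as total RNA, 3 for SF3B4 siRNA and 3 for control siRNA, grouped by title. FPKM values for 50868 Ensembl genes in each library are as the authors deposited them. FPKM scales fragments by transcript length and library total, so counts were not tested. The submitters' processing notes name HISAT2 2.0.4, StringTie 1.3.0 and GRCh38 but no roles. For strand setting, annotation and shared reads, settings were not given in the sources used here. Total depth was inferred from the steps between low FPKM values of single-exon genes. Intervals of counting error cover counting only.

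Symbols were found for 49659 genes, and 50111 were in GENCODE 29. limma 3.58.1 in R 4.3.3 (trend and robust options, two-sided) was run on log2(FPKM + 0.1) for the 9685 genes at 1 FPKM or more in at least 3 libraries, with Benjamini-Hochberg adjustment and a threshold of 0.05. Fold changes on that scale understate low genes. An exact permutation test of 3 against 3 cannot give a two-sided p below 0.1 and was not used. Copies of at least 90% identity over 100 bases were found with BLAST 2.17.0. Replicates 1 to 3 were not paired in the main fit, and no column of another sample was used. The members and lists were chosen with earlier results of these data known. Values in every library are given for members past the threshold whose log2 fold change was 0.5 or more in size and for the smallest change in each subcomplex. The alternatives were other pseudocounts, filters, scalings and fits, a replicate block, a minimum fold of 1.2, each library left out, and knockdown replicate 1 alone. Some genes of the other pathway lists are in the counts but not reported here by name.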

Additional observations from a re-analysis of the deposited data

How the results depend on the processing

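Of the proteasome members, 25 were higher and 4 lower. With a tested difference of at least 1.2-fold, these counts were 10 and 2, and with SF3B4 siRNA replicate 1 alone against 3 controls 10 and 1. With a mean FPKM of at least 5, 2 members were lower, since PSMD14 and PSMG2 were below that mean and were not tested. Over the libraries left out in turn, 20 to 24 were higher and 3 to 5 lower. Of all tested genes, 1546 were higher and 1752 lower; the counts were 1027 and 940 under that filter on means, 420 and 693 with the 1.2-fold test, and 303 and 684 with replicate 1 alone. Of the other pathway genes, 10 were higher and 1 lower; the counts were 2 and 0 with the 1.2-fold test and with replicate 1 alone, 0 were lower without the trend and robust options, and with libraries left out in turn 6 to 10 were higher (6 without SF3B4 siRNA replicate 2) and 0 to 2 lower. The cause of the other differences was not tested. Over all tested genes, deviations of libraries with the same replicate number showed little correlation (-0.08, 0.0243 and -0.118). Whether replicate numbers pair the libraries for some genes was not tested. With a replicate block 23 members were higher and 6 lower, among 1290 and 1537 genes. PSME3 (limma adjusted p = 0.0025) and PSMD10 (0.049) passed as lower there, while PSMA4 (0.065) and PSMD1 (0.069) no longer passed as higher. PSMC6 (0.039) and PSMD12 (0.044) passed as higher with quantile normalization, and PSMF1 (0.036) with replicate 1 alone. Members near no change turned sign on the log2 scale. PSMA3 was at 0.017 as TPM, 0.043 with quantile normalization and 0.0075 by median of ratios, and between -0.061 and 0.033 with libraries left out in turn. PSMG4 was at 0.038 with quantile normalization and between -0.083 and 0.013 with libraries left out, and PSME4 between -0.20 and 0.082. With replicate 1 alone, PSMB2 was at -0.013 and PSME2 at -0.035. At the estimated depth, counting error reached 8.14% for the member with fewest fragments.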
